A study of Homo sapiens with 18 samples.

Results

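The mitochondrial ribosome (mitoribosome) is the machine that translates the few proteins encoded by mitochondrial DNA, all of them core parts of the respiratory chain and ATP synthase. It has a small subunit, which reads the mRNA, and a large subunit, which joins amino acids and feeds the chain towards the inner membrane. Its RNAs come from mitochondrial DNA, but its proteins are encoded in the nucleus, made in the cytosol and imported. LONP1, the protein lowered in this study, is an ATP-dependent protease of the mitochondrial matrix that degrades damaged or unassembled proteins.

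The genes described here are those whose symbol begins with MRPL (large subunit) or MRPS (small subunit), followed by a number and at most 1 letter, and whose level, in counts scaled to a common library total (CPM), exceeded 1 in at least 3 of the 18 libraries. All 77 symbols of this form in the table met the limit, 48 for the large and 29 for the small subunit, out of 12832 genes that met it and 26485 listed. The division by symbol was followed throughout, although MRPS18A and MRPS30 are placed in the large subunit by structural work and MRPS36 is now assigned to the oxoglutarate dehydrogenase complex. In 76 of the 77 genes the mean was above 10 CPM. The exception, MRPS24, had group means of 0.92 to 1.54 CPM and is the gene just inside the limit, with none just outside it.

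RNA was taken from SW620 cells, a line from human colorectal cancer, which carried either a scrambled siRNA (scramble) or siRNA against LONP1 (siLonp1). Cells of each kind stayed at 37 °C (Ctrl), were heated to 42 °C for 1 h (HS), or had 1 h of recovery at 37 °C after the same heating (HS+REC), which gave 6 groups of 3 libraries. The study describes its replicates as independent, all from 1 cell line, and its methods list a pair of LONP1 siRNAs without saying which was used for these libraries. Total counts ran from 30815860 to 47279297 per library. Levels are relative to the other transcripts of a bulk sample, in which fewer cells with a transcript and less of it per cell cannot be told apart. LONP1 itself averaged 221 ± 5.56 CPM (SD, n = 3) in Ctrl scramble and 20.4 ± 1.75 in Ctrl siLonp1, a log2 change of -3.43 (SE 0.078), with -4.19 in HS and -3.01 in HS+REC. Of 11 colon epithelial markers, 8 exceeded 1 CPM in some library (summed level 8325 to 11689 CPM) and CDX1 was at 0. Of 12 markers of blood, stromal, vessel and liver cells, 5 did so (16.0 to 42.2 CPM) and COL3A1 was at 0.

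Replicates of a group differed for the family as a whole, most of all in HS scramble. In HS scramble replicates 1 and 2 the median member lay 0.20 and 0.21 log2 units below its mean in Ctrl scramble, and 67 of 77 members were below that mean in each. In HS scramble replicate 3, the library with the fewest counts, the median was -0.0044 and 41 of 77 were below. Members' counts, their shared calls, the subunit ratios and the counts in other gene lists that rest on the HS scramble group are therefore also given without it. Among the HS siLonp1 libraries, replicate 1 had a median of -0.064, against -0.21 and -0.19 in the other two, and the HS+REC scramble libraries ran from -0.13 to 0.025.

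Promoter sequences are shown for 4 members on which the results below turn: MRPL18 and MRPS6, which rose with heat, MRPL17, which fell with heat, and MRPS18B, which fell with siLonp1. Each is the 250 bases before the RefSeq transcription start on GRCh38.p14, 5′ to 3′ on the strand of the gene. Capitals mark an ETS site (CCGGAAG) in MRPL18 and copies of the NRF1 core (GCATGCGC) in MRPL17 and MRPS18B, read on either strand.
MRPL18, chr6:159790217-159790466, plus strand: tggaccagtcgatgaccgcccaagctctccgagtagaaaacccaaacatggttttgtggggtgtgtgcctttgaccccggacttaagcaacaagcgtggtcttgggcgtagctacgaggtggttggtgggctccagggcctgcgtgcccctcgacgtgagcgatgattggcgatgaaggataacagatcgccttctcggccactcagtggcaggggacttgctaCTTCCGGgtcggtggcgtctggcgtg
MRPS6, chr21:34073328-34073577, plus strand: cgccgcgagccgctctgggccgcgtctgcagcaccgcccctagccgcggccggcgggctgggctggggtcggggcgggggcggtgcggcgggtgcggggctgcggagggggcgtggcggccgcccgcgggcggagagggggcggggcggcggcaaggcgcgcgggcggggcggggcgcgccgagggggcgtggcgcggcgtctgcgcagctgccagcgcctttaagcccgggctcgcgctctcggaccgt
MRPL17, chr11:6683341-6683590, minus strand: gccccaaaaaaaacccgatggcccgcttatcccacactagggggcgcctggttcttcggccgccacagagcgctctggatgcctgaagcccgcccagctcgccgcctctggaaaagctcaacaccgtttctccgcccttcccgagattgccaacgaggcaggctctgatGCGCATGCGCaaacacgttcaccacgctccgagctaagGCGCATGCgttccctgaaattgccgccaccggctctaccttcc
MRPS18B, chr6:30617590-30617839, plus strand: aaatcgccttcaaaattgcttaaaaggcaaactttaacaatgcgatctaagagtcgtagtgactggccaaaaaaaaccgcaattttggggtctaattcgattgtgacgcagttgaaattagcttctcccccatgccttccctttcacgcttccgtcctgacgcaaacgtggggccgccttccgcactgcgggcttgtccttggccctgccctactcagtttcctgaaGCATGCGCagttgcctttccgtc

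Short motifs of 5 kinds were searched on both strands of these windows, for which 69 members, 10211 genes tested and 27305 promoters in all were matched. The ETS site, bound by the family to which GABP (NRF2) belongs, was in 33.3% of member promoters, 16.0% of those of the genes tested and 8.72% of all promoters. The NRF1 core, bound by nuclear respiratory factor 1, was in 8.70%, 4.60% and 2.7%. A YY1 site (AAGATGGCG) was in 4.35%, 1.09% and 0.62%. The paired heat shock element GAANNTTC was in 7.25%, 4.11% and 5.94%, and the CEBP-ATF composite TGATGNAAT in 1.45%, 0.37% and 0.92%. Within the family, the ETS site was held by 14 of 41 large and 9 of 28 small subunit promoters. The NRF1 core was held by 6 of the 69 members: MRPL17, MRPL22, MRPL32, MRPL52, MRPS18B and MRPS18C. Of these, MRPL32 was called higher with HS in siLonp1, and MRPS18C higher in recovery against HS in both arms. MRPL24, which fell with siLonp1, held none of the 5 motifs. Of the promoters printed above, MRPL18 held the ETS site at -26 to -20 and no GAANNTTC, MRPL17 held 3 NRF1 cores (the first 2 overlap on opposite strands), MRPS18B held 1 at -23 to -16, and MRPS6 held none of the 5 motifs. For MRPL18 the RefSeq start used here lies 655 bases inside the gene as GENCODE draws it, and for MRPS6 354 bases inside it, so the bases next to the outer GENCODE start of these genes were not searched. A match describes these letters in this window and is not a measured binding site.

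Levels between members can be compared per kilobase of transcript (CPM divided by the length of the canonical GENCODE transcript). In Ctrl scramble MRPL51 had the highest level at 186 ± 6.28 CPM per kb (SD, n = 3), followed by MRPL12, a protein of the stalk that recruits translation factors, at 184 ± 15.1, and these neighbours did not differ beyond their spread. Over all 18 libraries MRPL18 was first with 425 CPM per kb, because of its level after heat, against 115 in Ctrl scramble. The lowest were MRPS24 (1.71 ± 0.155 in Ctrl scramble), MRPL42 (4.62 ± 0.0524) and MRPL19 (10.3 ± 0.224). MRPS24 shares 606 exonic bases with the readthrough gene URGCP-MRPS24 on the same strand, so its level is uncertain. The canonical transcripts of MRPL42 and MRPL19 are 15557 and 7825 bases long, and use of a shorter form would raise their levels. Median levels in Ctrl scramble were 58.9 CPM per kb for the large and 46.5 for the small subunit.

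The first question was what heat did to these genes in cells with normal LONP1. Most members fell slightly or did not pass the test, while MRPL18 and MRPS6 rose. With HS in scramble, 25 of 77 members were lower and 2 higher at a false discovery rate of 0.05 (edgeR quasi-likelihood test, adjusted over all 12832 genes), beside 17.3% lower and 18.6% higher among all genes tested. The median log2 change was -0.14 over members and -0.014 over all genes. Apart from MRPL18 and MRPS6, no member changed by more than 1.5-fold. Without HS scramble replicate 3, 36 members were lower and 2 higher, beside 15.7% and 20.3% of all genes in that fit. Leaving out other libraries of this comparison gave fewer: 9 lower without HS scramble replicate 2, 11 without HS scramble replicate 1, 12 without Ctrl scramble replicate 2 and 15 without Ctrl scramble replicate 1, each with the same 2 genes higher.

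MRPL18 binds 5S ribosomal RNA, and in heat-stressed human cells its mRNA is known also to yield a cytosolic form of the protein that joins cytosolic ribosomes. MRPL18 lies on chromosome 6 from 159789812 to 159798436 (plus strand, GENCODE on GRCh38). In scramble its 3 libraries held 106.3, 114 and 115.8 CPM in Ctrl, 323.7, 327.8 and 362.5 in HS, and 611.8, 735.5 and 735 in HS+REC. In siLonp1 they held 100.1, 96.54 and 97.37 CPM in Ctrl, 429, 363.9 and 383.8 in HS, and 951.8, 830.3 and 733.5 in HS+REC. Every HS library was above every Ctrl library, and every HS+REC library above every HS library. The log2 change with HS was 1.59 (SE 0.086, adjusted p = 5.90e-13, edgeR) in scramble, a 3.02-fold rise, and 2.0 (SE 0.087, adjusted p = 8.28e-15, edgeR) in siLonp1, a 4.0-fold rise. By size of rise MRPL18 ranked 156th and 117th of the 12832 genes. It was the sole member past a 2-fold limit with HS, where 2.94% of all genes in scramble and 3.42% in siLonp1 were that much higher.

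After recovery MRPL18 was higher still. Against Ctrl it was up by 2.63 log2 units (SE 0.089) in scramble, or 6.20-fold, and by 3.10 (SE 0.091) in siLonp1, or 8.56-fold. Against HS it was up by 1.04 (SE 0.084) and 1.10 (SE 0.084). It was the sole member more than 2-fold higher in recovery against HS, beside 1.06% and 1.83% of all genes in scramble and siLonp1. TCP1, a subunit of the cytosolic chaperonin that folds actin and tubulin, lies head to head with MRPL18, with 109 bases between the annotated gene ends (chromosome 6, 159778498 to 159789703, minus strand). TCP1 averaged 605 ± 13.4 CPM in Ctrl scramble, 869 ± 13.9 in HS scramble and 1385 ± 129 in HS+REC scramble (SD, n = 3), log2 rises of 0.52 and 1.20. In siLonp1 its log2 rises were 0.66 with HS and 1.51 with HS+REC. Both genes of the pair thus rose in both arms, MRPL18 by more. The part that this arrangement plays was not tested.

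MRPS6, a small subunit protein related to bacterial ribosomal protein S6, lies on chromosome 21 from 34073224 to 34143034 (plus strand). In scramble it held 28.45, 26.62 and 25.73 CPM in Ctrl, 45.63, 40.17 and 46.34 in HS, and 69.84, 80.61 and 76.1 in HS+REC. In siLonp1 it held 52.29, 51.45 and 54.18 CPM in Ctrl, 92.42, 79.85 and 89.43 in HS, and 131.3, 124.7 and 117.7 in HS+REC. The groups compared did not overlap in any of the 9 comparisons of 2 groups, and MRPS6 was the sole member called in all 9, beside 1.68% of all genes. Its log2 change was 0.71 (SE 0.074) with HS in scramble and 0.73 (SE 0.071) in siLonp1. With HS+REC it was 1.49 (SE 0.074) and 1.24 (SE 0.071), or 2.80-fold and 2.37-fold. MRPS6 and MRPL18 were thus the 2 members more than 2-fold higher with HS+REC, beside 3.78% of all genes in scramble and 4.51% in siLonp1.

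The reads behind MRPS6 are uncertain. SLC5A3, which encodes a sodium and myo-inositol cotransporter, lies within MRPS6 on the same strand and shares 265 exonic bases with it. SLC5A3 averaged 31.3 ± 3.36, 134 ± 4.54 and 221 ± 26.9 CPM (SD, n = 3) in Ctrl, HS and HS+REC scramble, and 59.8 ± 4.08, 163 ± 20.8 and 324 ± 40.1 in the siLonp1 groups. It too was higher with heat and with siLonp1, and how far its reads were counted for MRPS6 was not tested. With siLonp1, MRPS6 changed by 0.97, 0.99 and 0.72 log2 units in Ctrl, HS and HS+REC, and SLC5A3 by 0.93, 0.29 and 0.55.

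**Figure D1:**
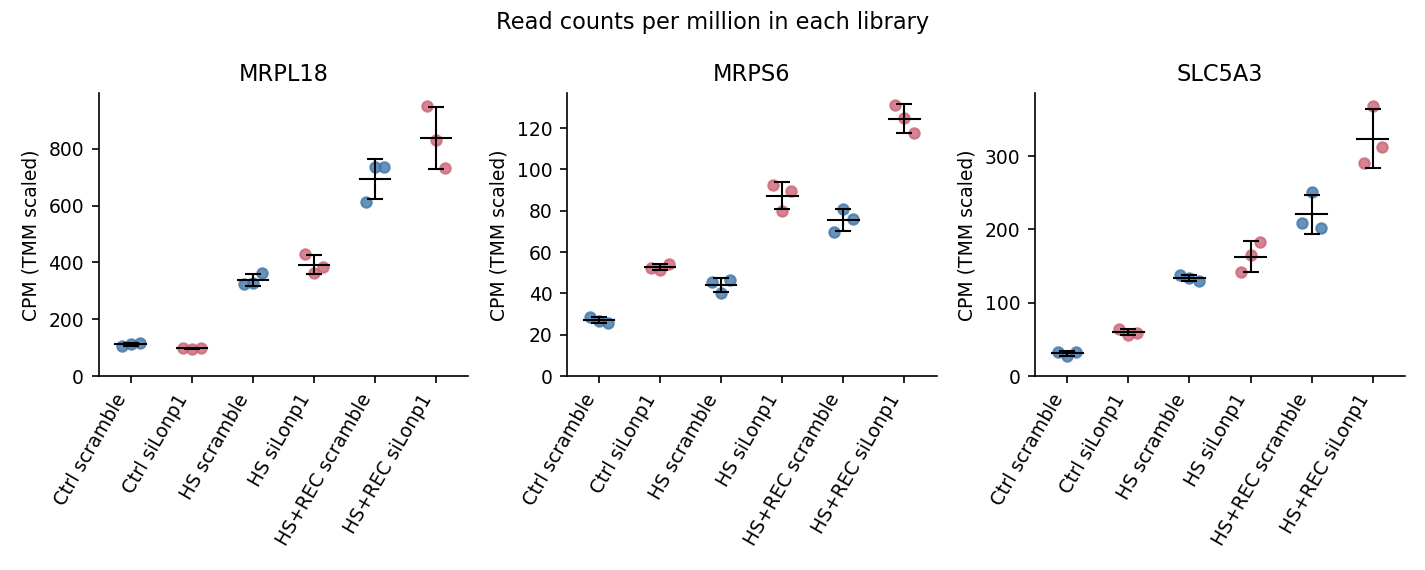
CPM of MRPL18, MRPS6 and the overlapping gene SLC5A3 in each library (points, blue for scramble and red for siLonp1), with the mean and SD of the 3 libraries of each group (lines and bars) on axes from 0. MRPL18 rises from about its Ctrl level of 112 to 694 CPM in HS+REC scramble and differs little between the Ctrl arms, while MRPS6 is higher in siLonp1 than in scramble in every condition.

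The members that fell with heat did so by small amounts. MRPL17, which sits by the exit of the tunnel through which new chains leave, held 111.9, 114.5 and 114.5 CPM in Ctrl scramble and 90, 82.7 and 95.18 in HS scramble. In siLonp1 it held 118.2, 117.3 and 115.4 CPM in Ctrl and 85.63, 83.35 and 82.28 in HS. The groups were apart in both arms, with log2 changes of -0.35 (SE 0.067) and -0.48 (SE 0.068). MRPL20, whose bacterial counterpart is needed early in large subunit assembly, changed by -0.31 (SE 0.066) in scramble and -0.25 in siLonp1. MRPL36, a small zinc-binding protein of the large subunit, changed by -0.33 (SE 0.087) and -0.28 (SE 0.087), and the second of these calls was lost without HS siLonp1 replicate 2 (-0.20, adjusted p = 0.087, edgeR). MRPS2, a core small subunit protein, was called with HS in siLonp1 alone among the HS contrasts, at -0.35 (SE 0.068). The difference between arms was not called for any of these.

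In siLonp1 cells, HS gave 14 members lower and 4 higher, beside 22.1% lower and 20.2% higher among all genes. The median over members was -0.044, and ran from -0.095 without HS siLonp1 replicate 1 to -0.0097 without HS siLonp1 replicate 2. With library size as the sole scaling the split was 23 lower and 3 higher, with a median of -0.093. Without HS siLonp1 replicate 2 it was 6 lower and 5 higher, without HS siLonp1 replicate 3 it was 6 and 4, and without Ctrl siLonp1 replicate 3 it was 8 and 4. Without replicate 1 of HS siLonp1 or of Ctrl siLonp1, 2 members were higher. Besides MRPL18 and MRPS6, the higher members were MRPL32 and MRPS21. MRPL32, which is cut by the m-AAA protease before it joins the large subunit, held 65.47, 70.05 and 66.23 CPM in Ctrl siLonp1 and 89.36, 76.75 and 77.42 in HS siLonp1, a log2 change of 0.27 (SE 0.089). This call was lost without HS siLonp1 replicate 1 (0.20, adjusted p = 0.11) or Ctrl siLonp1 replicate 1 (0.25, adjusted p = 0.059, both edgeR). The scramble and siLonp1 arms share no library, so their calls may be set side by side. MRPL18 and MRPS6 were higher in both arms, beside 14.5% of all genes higher in both. Lower in both were 13 members, beside 13.0% of all genes: MRPL14, MRPL16, MRPL17, MRPL19, MRPL20, MRPL36, MRPL46, MRPL57, MRPS10, MRPS12, MRPS16, MRPS17 and MRPS27. That share of the family, 16.9%, was near the background. All but MRPL19, 12 in number, were still lower in both arms when HS scramble replicate 3 was left out, and the same 2 were higher.

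Recovered cells were compared with unheated cells in the same way. In scramble, HS+REC gave 13 members lower and 6 higher against Ctrl, beside 20.5% lower and 21.8% higher among all genes, and a median over members of -0.059. Library size scaling gave 30 lower and 3 higher with a median of -0.14, and 8 were lower without HS+REC scramble replicate 1. In siLonp1, HS+REC gave 15 members lower and 11 higher, beside 26.6% and 24.6%, and a median of -0.024. Without 1 library that median ran from -0.065 to 0.0056, and in scramble from -0.096 to -0.012. Library size scaling gave 25 lower and 4 higher with a median of -0.10, and 7 were higher without replicate 1 or 2 of Ctrl siLonp1 or replicate 1 of HS+REC siLonp1. The median size of change, whatever its sign, was 0.082 with HS and 0.11 with HS+REC in siLonp1. Higher in both arms were MRPL18, MRPS6, MRPL44 and MRPS31, beside 18.2% of all genes, and lower in both were 11 members, beside 17.4%. MRPS31 has a near-identical pseudogene copy, so its reads are uncertain.

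MRPL44 resembles the RNA-cutting enzyme RNase III and lies by the tunnel exit. It held 72.1, 73.62 and 71.11 CPM in Ctrl scramble, 69.05, 64.41 and 73.27 in HS scramble, and 88.06, 93.09 and 91.26 in HS+REC scramble. In siLonp1 it held 80.51, 79.44 and 82.32 CPM, then 80.92, 71.8 and 76.56, then 105.3, 101 and 105.1. Ctrl and HS libraries overlapped in each arm, and the HS+REC libraries lay above both. Its log2 change with HS+REC was 0.33 (SE 0.057) in scramble and 0.36 in siLonp1. MRPL14, a protein of the face between the subunits, was the most lowered member in both arms. Its mean was 49.1 ± 2.30 CPM in Ctrl scramble and 36.9 ± 0.791 in HS+REC scramble (SD, n = 3), a log2 change of -0.41 (SE 0.091), and the change in siLonp1 was -0.53 (SE 0.092). MRPL34 and MRPL57 followed in scramble with -0.39 (SE 0.11) and -0.33 (SE 0.085). The MRPL34 call was lost without HS+REC scramble replicate 1 (-0.28, adjusted p = 0.054, edgeR). In siLonp1 they were MRPL17 at -0.50 and MRPS2 at -0.39. MRPS24 was called higher in siLonp1 (0.69, SE 0.27), at 0.82 to 1.11 CPM in Ctrl and 1.18 to 1.93 in HS+REC. That call was lost without HS+REC siLonp1 replicate 1 (0.45, adjusted p = 0.23), without Ctrl siLonp1 replicate 1 (0.62, adjusted p = 0.11) or replicate 3 (0.61, adjusted p = 0.11), and with library size scaling (0.61, adjusted p = 0.062, all edgeR). MRPS24 also shares 606 exonic bases with the readthrough gene URGCP-MRPS24 on the same strand.

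Set directly against HS, recovery raised more members than it lowered. It raised 11.7% of the family in scramble and 7.79% in siLonp1, below the 14.2% and 16.3% of all genes. In scramble 9 members were higher and 1 lower, beside 14.2% and 12.7% of all genes, and the median over members was 0.070 (0.037 without HS scramble replicate 2, 0.11 without HS scramble replicate 3, 0.013 by library size scaling). Without HS scramble replicate 3, 22 were higher and 1 lower, and without HS+REC scramble replicate 1, 16 were higher and none lower. Without HS scramble replicate 1 or 2, 6 were higher, and without HS+REC scramble replicate 2, 5 were higher, with none lower, and without HS+REC scramble replicate 3, 4 were lower. In siLonp1, 6 members were higher and 3 lower, beside 16.3% and 15.6%. The median there was 0.034, and ran from -0.030 without HS+REC siLonp1 replicate 1 to 0.077 without HS siLonp1 replicate 1. The 6 members MRPL18, MRPS6, MRPL44, MRPS18C, MRPS31 and MRPL47 were higher in both arms, with or without HS scramble replicate 3, beside 10.4% of all genes. MRPL44 changed by 0.40 (SE 0.058) in scramble and 0.44 (SE 0.057) in siLonp1. MRPS25 was the lower member in scramble at -0.16 (SE 0.056), and changed by -0.25 (SE 0.056) in siLonp1, the 1 member lower in both arms, beside 9.35% of all genes. The scramble call was lost without replicate 1 or 2 of HS scramble, without replicate 1 or 2 of HS+REC scramble, with no filter on low counts and with the compared groups alone (-0.17 to -0.13, adjusted p of 0.076 to 0.13, edgeR). MRPS27, a small subunit protein with pentatricopeptide repeats, changed by -0.19 (SE 0.051) in siLonp1, a call lost with the compared groups alone (-0.18, adjusted p = 0.058, edgeR).

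**Figure D2:**
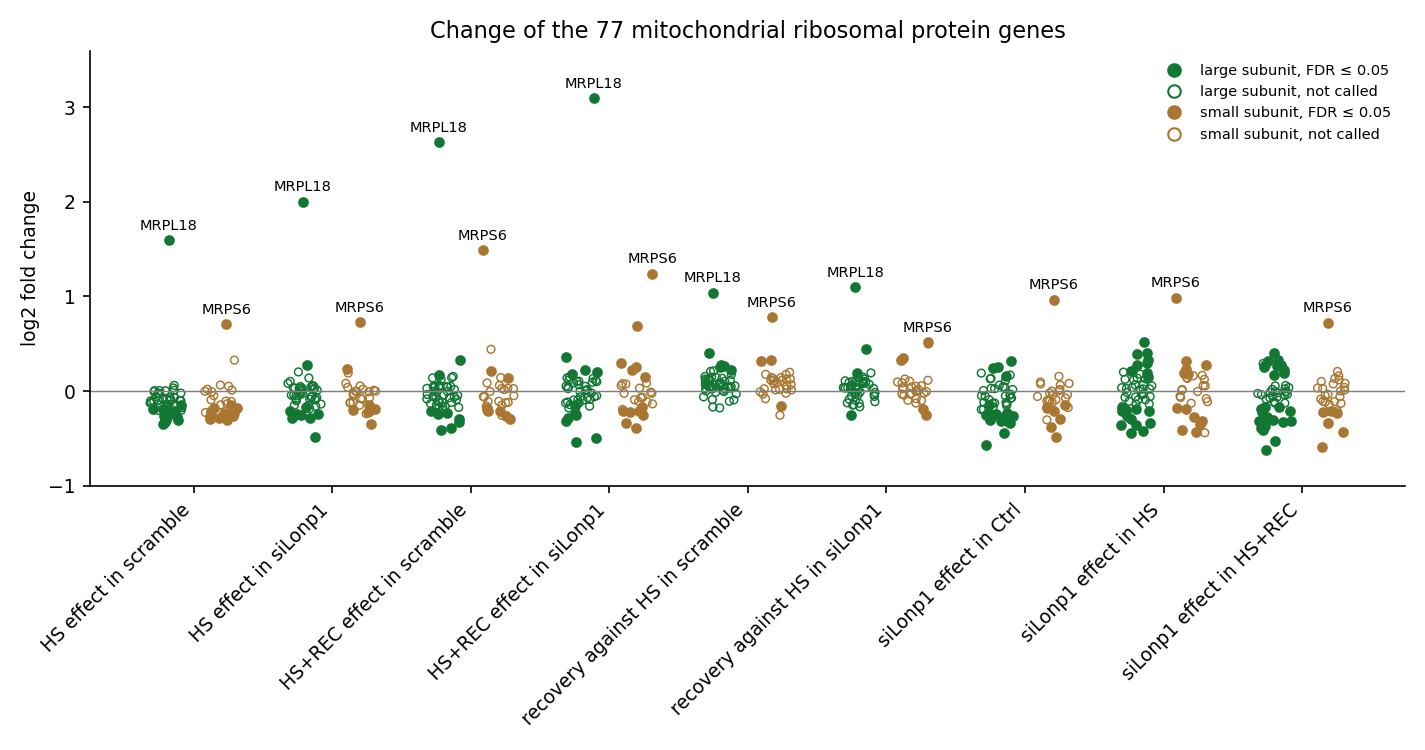
Log2 fold change of each of the 77 members in the 9 comparisons of 2 groups (green large subunit, brown small subunit, filled where the adjusted p was at most 0.05 in edgeR). MRPL18 reaches 3.10 and MRPS6 1.49, while the other members stay between -0.63 and 0.69.

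The second question was what loss of LONP1 did to these genes. In Ctrl cells 22 members were lower and 5 higher with siLonp1, beside 22.9% lower and 26.3% higher among all genes, and the median over members was -0.091 against 0.0092 over all genes. In HS, 19 were lower and 15 higher, beside 26.7% and 28.1%, with a median of 0.0079. The sign of that median rested on single libraries. It was 0.055 without HS scramble replicate 3, with 14 lower and 23 higher, beside 26.6% and 27.2% of all genes in that fit. It was -0.060 without HS siLonp1 replicate 1, with 19 lower and 8 higher. Leaving out HS scramble replicate 1 or 2 gave 9 and 8 higher. In HS+REC, 21 were lower and 11 higher, beside 27.3% and 26.8%, with a median of -0.040 (-0.093 without HS+REC scramble replicate 1, -0.0026 without HS+REC scramble replicate 3), and 6 were higher without replicate 1 of HS+REC scramble or of HS+REC siLonp1. In Ctrl 3 were higher without replicate 1 of either group. Library size scaling gave 35 lower and 3 higher in Ctrl, 31 and 6 in HS, and 28 and 7 in HS+REC, with medians of -0.17, -0.089 and -0.11. No member passed the 2-fold limit in these contrasts.

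The 3 conditions share no library, so members called in all of them rest on separate libraries. Lower in all 3 were 15 members (11 large, 4 small), beside 16.0% of all genes, and higher in all 3 were 5, beside 18.1%. Without HS scramble replicate 3 the same 5 were higher and 11 of the 15 lower, with MRPL16, MRPL21, MRPL35 and MRPL49 no longer called in HS. In 14 of the 15 and 4 of the 5 with all libraries, siLonp1 and scramble libraries did not overlap in any condition, beside 14.7% of all genes called lower and apart in all 3 and 16.6% called higher and apart. Over the 15, log2 changes ran from -0.57 to -0.15 in Ctrl, from -0.44 to -0.18 in HS and from -0.63 to -0.22 in HS+REC. Counting sign alone, 35 of 77 members were below 0 in all 3 conditions, 19 above 0 and 23 mixed, beside 37.2% of all genes below and 38.1% above 0 in all 3.

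MRPL2, a core protein by the site where peptide bonds form, was among the most lowered. It held 73.95, 78.06 and 78.99 CPM in Ctrl scramble and 53.71, 52.26 and 49.88 in Ctrl siLonp1. In HS it held 69.68, 72.89 and 74.38 CPM in scramble and 57.15, 51.73 and 50.58 in siLonp1. In HS+REC it held 73.49, 70.56 and 81.15 CPM in scramble and 53.46, 44.63 and 47.63 in siLonp1. The arms were apart in every condition, with log2 changes of -0.57 (SE 0.070), -0.44 (SE 0.070) and -0.63 (SE 0.070). No heat contrast of MRPL2 was called, with log2 changes from -0.13 to 0.055.

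MRPS18B is 1 of the 3 human relatives of bacterial ribosomal protein S18. Its means in scramble were 145 ± 0.482, 128 ± 4.30 and 135 ± 2.88 CPM in Ctrl, HS and HS+REC, and in siLonp1 104 ± 1.96, 95.2 ± 4.77 and 89.0 ± 4.88 (SD, n = 3). The log2 changes with siLonp1 were -0.49 (SE 0.054), -0.43 (SE 0.055) and -0.60 (SE 0.055). The other relatives, MRPS18A and MRPS18C, were not called with siLonp1 in any condition. MRPL24, a large subunit protein, held 53.74, 57.44 and 50.93 CPM in Ctrl scramble and 41.98, 40.55 and 36.86 in Ctrl siLonp1, and changed by -0.44 (SE 0.084), -0.43 (SE 0.085) and -0.52 (SE 0.084). The remaining 12 were MRPL4, MRPL10, MRPL16, MRPL21, MRPL35, MRPL37, MRPL38, MRPL46, MRPL49, MRPS5, MRPS25 and MRPS27. Of these, MRPL10 anchors the stalk, while MRPL37, MRPL38, MRPL46 and MRPL49 are proteins that bacterial ribosomes lack.

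The 5 higher in all 3 conditions were MRPS6, MRPL33, MRPL42, MRPL44 and MRPL53. MRPS6 changed by 0.97 (SE 0.074), 0.99 (SE 0.072) and 0.72 (SE 0.070) in Ctrl, HS and HS+REC, with the overlap with SLC5A3 described above. MRPL42 averaged 71.8 ± 0.814 CPM in Ctrl scramble and 89.5 ± 4.17 in Ctrl siLonp1 (SD, n = 3), and changed by 0.32 (SE 0.068), 0.30 and 0.28. MRPL33 averaged 33.5 ± 2.19 and 40.0 ± 0.359, and changed by 0.26 (SE 0.068), 0.39 and 0.32. MRPL53 shares 499 of its 685 exonic bases with CCDC142 on the same strand, so its reads are uncertain.

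Some members were called with siLonp1 after heat and not in Ctrl. MRPL48 changed by 0.52 (SE 0.082) in HS and 0.33 (SE 0.082) in HS+REC. MRPL54 changed by 0.40 (SE 0.089) in HS, and MRPL34 by 0.41 (SE 0.11) in HS+REC. For MRPL48, the HS scramble libraries held 51.96, 54.55 and 63.92 CPM and the HS siLonp1 libraries 89.75, 76.51 and 77.77, so the groups were apart. The interaction with HS of MRPL48 was called with no filter on low counts (0.35, adjusted p = 0.039) and without HS scramble replicate 3 (0.43, adjusted p = 0.032, both edgeR), and not with the filter and all libraries. For MRPL54 and MRPL34 no interaction was called.

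Whether heat acted differently in the 2 arms was tested by interaction terms. For HS, no member was called by edgeR over the genes past the limit and all 18 libraries, and 6 of 77 had an unadjusted p under 0.05, beside 15.2% of all genes. MRPL18 was called by DESeq2 (adjusted p = 0.033), by edgeR with the compared groups alone (adjusted p = 0.011) and by edgeR with no filter on low counts (adjusted p = 0.0050), where MRPL48 was called too (adjusted p = 0.039). In the edgeR fit of all 18 libraries with the filter, 0.475% of all genes were called higher and 1.39% lower. Without HS scramble replicate 3, 4 members were called, MRPL18, MRPL32, MRPL48 and MRPS23, all with positive terms. The share of all genes called in that fit is not given here, so these 4 have no background beside them. For HS+REC, MRPL18 was called, with a further rise of 0.47 log2 units in siLonp1 (SE 0.12, adjusted p = 0.047, edgeR), beside 0.686% higher and 0.896% lower among all genes. Of 77, 4 had an unadjusted p under 0.05, beside 13.6% of all genes. This call was lost in 9 of the 12 fits that left out a library, in which the term ran from 0.36 without HS+REC siLonp1 replicate 1 (adjusted p = 0.12) to 0.55 without HS+REC siLonp1 replicate 3 (adjusted p = 0.0091). It was also lost with the replicate number as a block (adjusted p = 0.073), with the compared groups alone (0.078) and with genes above 1 CPM in all libraries (0.051). DESeq2 gave an adjusted p of 0.0080.

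**Figure D3:**
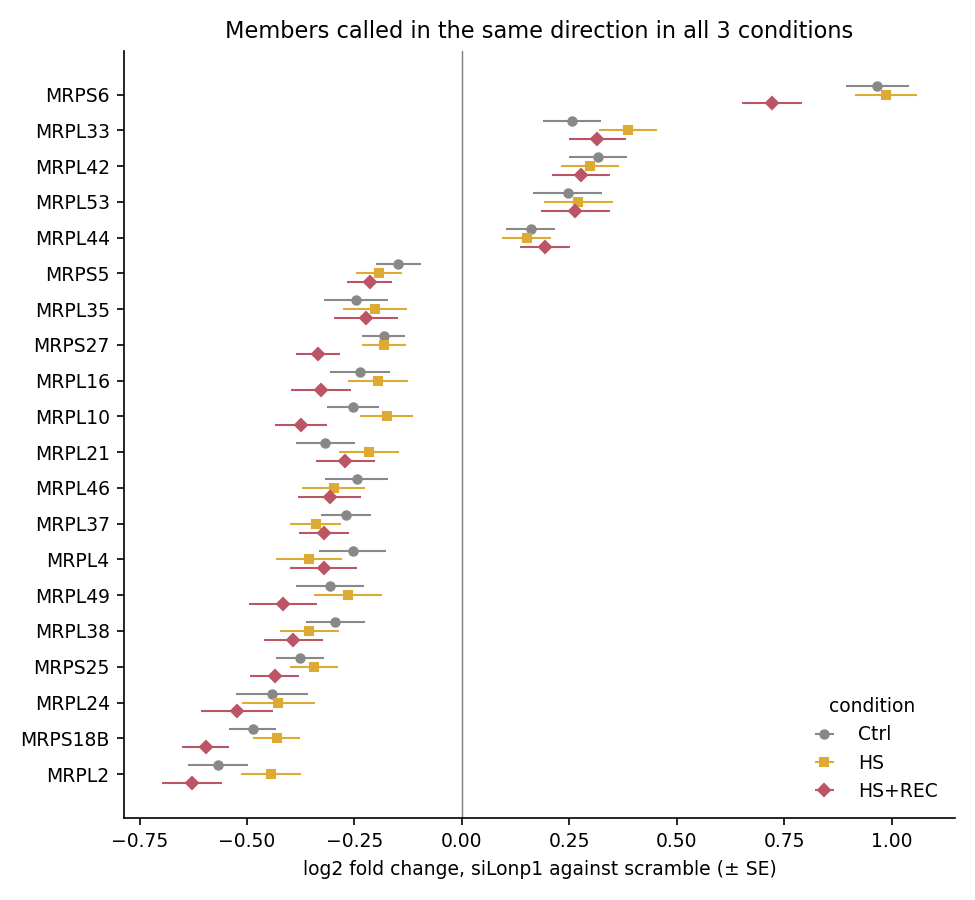
Log2 fold change of siLonp1 against scramble with its standard error in Ctrl, HS and HS+REC (3 markers a gene), for the 20 members called in the same direction in all 3 conditions. MRPS6 stands at 0.72 to 0.99, the other 4 raised members below 0.40, and MRPL2, MRPS18B and MRPL24 are the lowest.

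The large and small subunits were then set against each other. In Ctrl scramble the 48 large subunit genes summed to 4085 ± 109 CPM and the 29 small subunit genes to 2414 ± 50.4 (SD, n = 3), a ratio of 1.69 ± 0.0267. The ratio was 1.82 ± 0.0258 in HS scramble and 1.97 ± 0.0274 in HS+REC scramble. In siLonp1 it was 1.67 ± 0.0107, 1.81 ± 0.0196 and 2.01 ± 0.0437. The lowest HS library, at 1.79, was above the highest Ctrl library, at 1.71, and the lowest HS+REC library, at 1.94, above the highest HS library, at 1.85. The scramble and siLonp1 libraries overlapped within each of the 3 conditions.

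Much of that shift lay in 1 gene. MRPL18 made up 2.74% ± 0.0989 of the large subunit sum in Ctrl scramble, 8.45% ± 0.149 in HS scramble and 15.2% ± 0.909 in HS+REC scramble (SD, n = 3). In siLonp1 it made up 2.60%, 10.1% and 19.0%. With MRPL18 and MRPS6 left out, a choice made after seeing their values, the ratios were 1.66, 1.70 and 1.73 in scramble and 1.66, 1.69 and 1.73 in siLonp1. HS and Ctrl libraries in scramble then overlapped, while in siLonp1 they did not (1.65 to 1.67 in Ctrl, 1.68 to 1.71 in HS), and every HS+REC library stayed above every Ctrl library in both arms. The mean HS scramble ratio was 1.80 with all members and 1.68 without those 2 genes when replicate 3 was left out. Measured by the median level of each subunit, the log2 change of the large against the small subunit with HS in scramble was -0.11, against 0.10 by the sums. With HS+REC it was -0.13 in scramble and -0.012 in siLonp1, against 0.22 and 0.27 by the sums. With the most abundant member of each subunit left out, the HS+REC sums gave 0.015 and -0.015, so the direction of the HS+REC shift depended on the measure and on the members summed.

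Calls were also counted within each subunit. With HS in scramble 13 of 48 large and 12 of 29 small subunit genes were lower, with medians of -0.12 and -0.15, beside 17.3% of all genes lower. They were 20 and 16 without HS scramble replicate 3, beside 15.7% of all genes lower in that fit. With siLonp1 in Ctrl 15 of 48 and 7 of 29 were lower, with medians of -0.11 and -0.091, beside 22.9%. With siLonp1 in HS+REC 10 of 48 large subunit genes and 1 of 29 small were higher, and 15 and 6 were lower, beside 26.8% and 27.3% of all genes. The shares of the large subunit, 20.8% and 31.3%, were near that background. These differences between subunits were not tested.

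**Figure D4:**
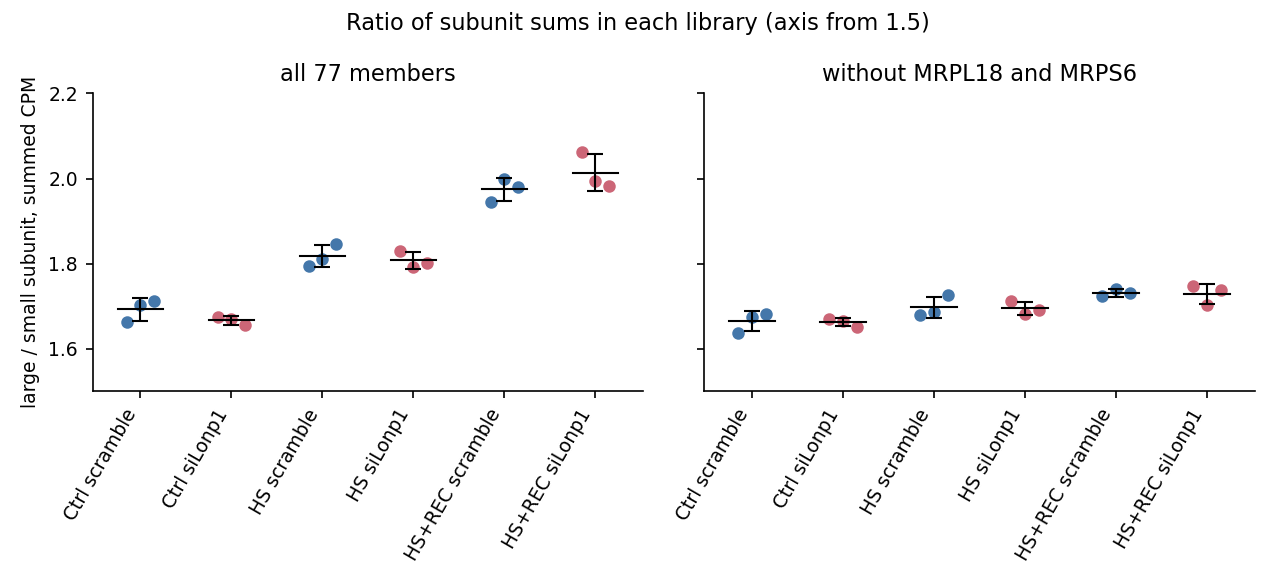
Ratio of the summed CPM of large to small subunit genes in each library (points, blue scramble, red siLonp1, with mean and SD of 3 libraries), for all 77 members and without MRPL18 and MRPS6, on an axis that starts at 1.5. The group means span 1.67 to 2.01 with all members and 1.66 to 1.73 without those 2 genes.

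The heat map of all members shows the spread between libraries beside the changes. The median size of the log2 change, whatever its sign, was 0.15 over members and 0.16 over all genes with HS in scramble (0.19 over members without HS scramble replicate 3), 0.12 and 0.18 with HS+REC in scramble, and 0.13 and 0.21 with siLonp1 in Ctrl. Members that changed by more than 1.5-fold made up 2.60% of the family with HS in scramble, against 9.05% of all genes (2 members with or without HS scramble replicate 3), and 1.30% against 13.4% with siLonp1 in Ctrl. In 15 members no comparison of 2 groups was called: MRPL1, MRPL3, MRPL12, MRPL13, MRPL27, MRPL28, MRPL41, MRPL43, MRPL45, MRPL51, MRPL52, MRPL55, MRPS7, MRPS9 and MRPS22. These were 19.5% of the family, beside 10.3% of all genes called in none of the 9, and 8 of them remained uncalled when HS scramble replicate 3 was left out. With all libraries, their log2 changes ran from -0.21 to 0.29 over the 9 comparisons, with standard errors of 0.056 to 0.15, so changes of that size may have been missed.

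**Figure D5:**
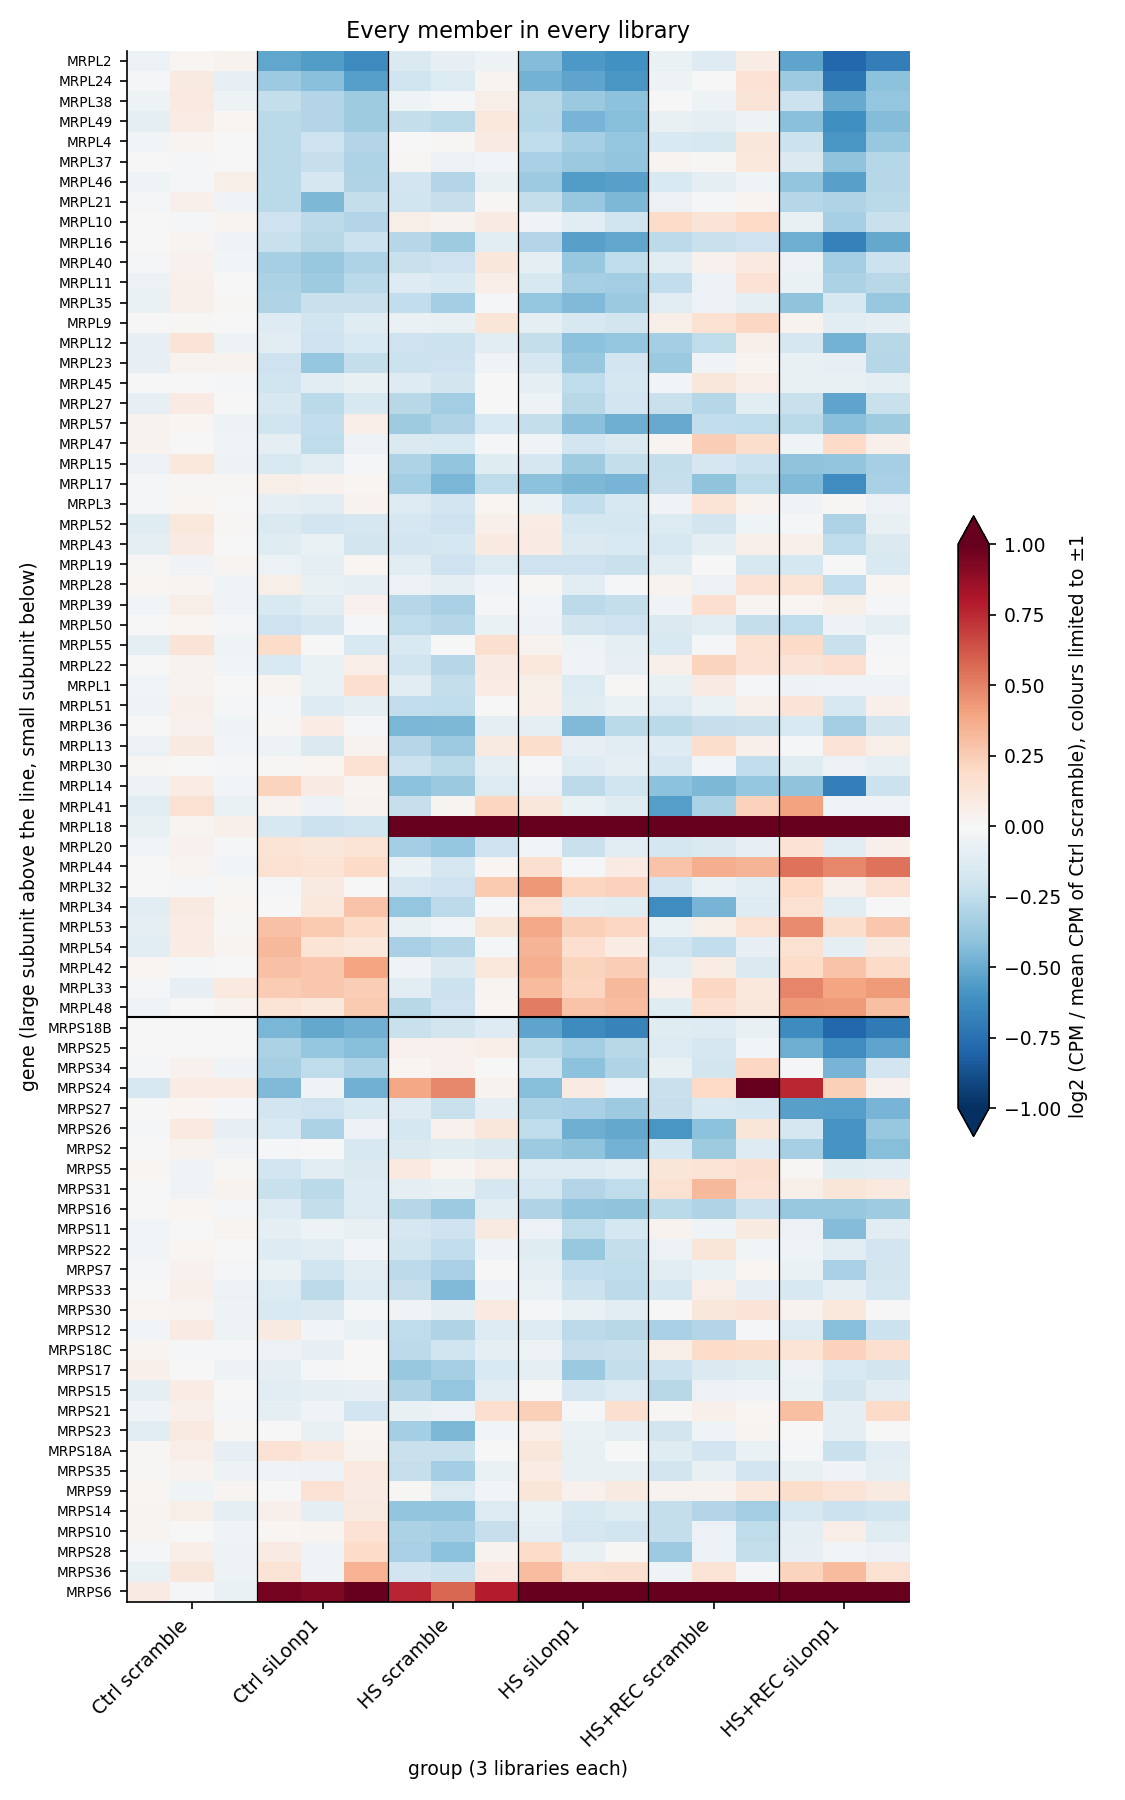
Log2 of the CPM of each member (rows, large subunit above the line) in each of the 18 libraries (columns, 3 a group) relative to its mean in Ctrl scramble, with colours limited to 1 unit either way. MRPL18 is dark red in all 12 heated libraries, MRPS6 is red in 15 libraries, and HS scramble replicate 3 (the last column of its group) is paler than replicates 1 and 2.

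Other genes of mitochondrial translation were read from lists of known function. Of 7 mitoribosomal proteins that carry other symbols, 6 were tested. DAP3, a GTP-binding protein of the small subunit, rose by 0.44 log2 units (SE 0.063) with siLonp1 in Ctrl and changed by -0.22 (SE 0.063) with HS+REC in scramble. ICT1, a peptidyl-tRNA hydrolase built into the large subunit, changed by -0.19 (SE 0.072) with siLonp1 in Ctrl, a call lost without any 1 of 4 of the 6 libraries compared (adjusted p of 0.065 to 0.12, edgeR).

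Among 24 assembly factors tested, siLonp1 lowered 12 in unheated cells, 16 with HS and 13 after recovery, and raised 0, 1 and 1. With HS scramble replicate 3 left out, siLonp1 lowered 13 with HS and raised 1. These were 54.2% and 4.17%, beside 26.6% and 27.2% of all genes in that fit. MRM1, a methyltransferase of the large ribosomal RNA, changed by -1.06 (SE 0.083) in Ctrl, MTG1, a GTPase of late large subunit assembly, by -1.02 (SE 0.079), and NSUN4, a methyltransferase of the small subunit RNA, by -0.47 (SE 0.056). The shares lowered, 50%, 66.7% and 54.2%, stood above the 22.9%, 26.7% and 27.3% of all genes given above. With HS+REC in scramble, 3 assembly factors were higher and 6 lower, 12.5% and 25% beside 21.8% and 20.5% of all genes. FASTKD2, an RNA-binding protein needed for the large ribosomal RNA, changed by -0.94 (SE 0.080), METTL15, a methyltransferase of the small subunit RNA, by 0.70 (SE 0.073), and NGRN, which acts on the same RNA as FASTKD2, by 0.42 (SE 0.052).

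Among 16 translation factors, siLonp1 in Ctrl lowered 5 and raised 3, or 31.3% and 18.8% beside 22.9% and 26.3% of all genes. The initiation factor MTIF2 changed by -0.40 (SE 0.058), the recycling factor MRRF by -0.37 (SE 0.059) and GFM2, which acts with it, by 0.25 (SE 0.066). With HS+REC in scramble 6 were higher and 2 lower (37.5% and 12.5%, beside 21.8% and 20.5%), led by GFM2 at 0.88 (SE 0.066), the release factor MTRF1 at 0.61 (SE 0.096) and the rescue factor C12orf65 at 0.49 (SE 0.083). Transcripts of mitochondrial DNA itself were not analysed here.

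The ribosomal proteins of the cytosol gave another pattern of counts. Of 81 tested, 2 were higher and 4 lower with siLonp1 in Ctrl, 56 higher and 2 lower in HS, and 24 higher and 3 lower in HS+REC. The shares higher, 2.47%, 69.1% and 29.6%, stood beside 26.3%, 28.1% and 26.8% of all genes, and the shares lower, 4.94%, 2.47% and 3.70%, beside 22.9%, 26.7% and 27.3%. With HS in scramble none was higher and 4 were lower (4.94%), beside 18.6% and 17.3% of all genes. In the mitochondrial family 2 were higher and 25 lower. With HS in siLonp1, 26 of the 81 were higher and 2 lower, or 32.1% and 2.47% beside 20.2% and 22.1% of all genes. There 4 members of the mitochondrial family were higher and 14 lower. When HS scramble replicate 3 was left out, 19 of the 81 were lower with HS in scramble and none higher, beside 15.7% of all genes lower, against 36 of 77 lower in the mitochondrial family. In that fit 60 were higher and 2 lower with siLonp1 in HS, beside 27.2% and 26.6% of all genes. No test of the difference between the families was made.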

How the data were processed

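The authors prepared stranded TruSeq libraries, aligned paired reads to hg38 with STAR 2.7.3a and counted reads per gene with featureCounts (R 3.6.3). The strand setting and the treatment of reads shared by genes are not given in the sources used here. Reads of members that share exonic bases with a gene on the opposite strand are therefore uncertain too. Among them are MRPS25 with NR2C2 (7157 bases), MRPL49 with SYVN1 (356) and MRPL2 with KLC4 (126). The deposited values are raw counts per gene. Totals per library are given above, and depth limits the precision for low genes.

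Counts were scaled by TMM and fitted in edgeR 4.0.16 (R 4.3.3, limma 3.58.1), with a mean for each of the 6 groups in 1 model of 18 libraries, over the 12832 genes past the limit on CPM (above 1, 3 libraries or more). Quasi-likelihood tests were adjusted by Benjamini-Hochberg over all of them, and a gene was called at 0.05 or below at any fold. SE is the log2 change divided by the root of the F statistic. CPM values are TMM scaled. The fits were tested on simulated counts, and DESeq2 1.42.0 was an alternative. Positions and lengths came from GENCODE v44 (all 77 matched) and promoters from RefSeq on GRCh38.p14.

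The members and lists were chosen with earlier results of these data known. Genes named in each contrast were up to 3 higher and 3 lower with the largest change among those called and not overlapping, the 3 highest and lowest per kilobase, and up to 3 per list. Others, such as TCP1 and SLC5A3, were named after their values were seen. Replicates were described as independent, and p-values measure the spread between them.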

Additional observations from a re-analysis of the deposited data

Results flagged for a closer look

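One result was marked because an effect differed between the arms by the test of that difference. With HS+REC, MRPL18 rose by 2.63 log2 units in scramble and by 3.10 in siLonp1, and the interaction term was 0.47 (SE 0.12, adjusted p = 0.047, edgeR). In siLonp1 the 3 HS+REC libraries held 951.8, 830.3 and 733.5 CPM, against 611.8, 735.5 and 735 in scramble, so the lowest siLonp1 library lay within the scramble range. The call was lost in 9 of the 12 fits without 1 library.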

How the results depend on the processing

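Alternatives were other scaling (RLE factors, or library size alone), other filters, DESeq2, fits of the compared groups alone, a replicate block, and leaving out each library. No value for a named gene turned its direction. Libraries of equal replicate number showed no clear pairing. Correlations of their deviations ran from -0.38 to 0.46, 10 of 45 exceeded 0.1, and 6 of 18 libraries were closest to their own number. Such values cannot decide whether some of these libraries shared an experiment. With the replicate block the HS+REC interaction gave 0 calls in place of 1, and no other count moved by over 1.5 times.

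Library size scaling called 33 members with HS+REC in scramble in place of 19, and moved the median of all genes by up to -0.096. Fits of the compared groups alone called 6 in place of 10 for recovery against HS in scramble, 42 in place of 27 with siLonp1 in Ctrl, 1 in place of 0 for the HS interaction and 0 for the HS+REC interaction. Genes above 1 CPM in all libraries gave 0 for the latter. For the HS interaction, DESeq2 gave 1 and no filter 2. Without 1 library, counts ran from 11 to 38 for HS in scramble, 10 to 20 for HS in siLonp1, 5 to 23 for recovery against HS in scramble, 0 to 4 for the HS interaction and 0 to 1 for the HS+REC interaction. The cause was not tested.

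The log2 change of the large against the small subunit sum was 0.10 with HS in scramble, 0.12 in siLonp1, 0.22 and 0.27 with HS+REC, 0.12 and 0.16 for recovery, and -0.022, -0.0073 and 0.028 with siLonp1 in Ctrl, HS and HS+REC. In that order for the 6 heat contrasts, the median of log2 CPM gave -0.11, -0.017, -0.13, -0.012, -0.014 and 0.0056. Leaving out the most abundant member of each subunit (MRPL18 and MRPS27) gave 0.013, -0.0044, 0.015, -0.015, 0.0011 and -0.011. Leaving out MRPL18 and MRPS6, chosen after seeing the data, gave 0.028, 0.028, 0.056, 0.057, 0.028 and 0.029. For siLonp1 in HS and HS+REC the median gave 0.073 and 0.093 and the most abundant left out -0.045 and -0.057, and without MRPL18 and MRPS6 it was -0.0021 in Ctrl and -0.0013 in HS+REC.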
